A study of Mus musculus with 12 samples.

Results

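The neurotrophin genes examined here were 6 of the 51912 gene lines in each count file: the ligand genes Ntf3 and Bdnf, the Trk receptor genes Ntrk2 and Ntrk3, and Ngfr and Sort1, which encode the p75 receptor and its partner sortilin. They were chosen by gene family, with earlier results of these same counts known. Their values in all 3 comparisons are therefore given as a description, with standard errors and no p-values. Total RNA, depleted of ribosomal RNA, was measured in cortex of mice at postnatal day 0, with 4 libraries a group. In the dKO-N group both genes of the histone variant H3.3, H3f3a and H3f3b, were deleted with Neurod6-Cre, which acts in new postmitotic excitatory neurons. In the dKO-E group the same genes were deleted with Emx1-Cre, which acts earlier, in the dorsal progenitors of those neurons. The reference libraries are labelled control, and whether they carried floxed alleles or a Cre is not given in the sources used here. Interneurons arise outside both Cre lineages, and vessels, microglia and meninges do too, so each cortex still held cells with H3.3.

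Neurotrophins are secreted growth factors that keep neurons alive and shape their dendrites, axons and synapses. Neurotrophin-3, made from Ntf3, prefers the receptor tyrosine kinase TrkC (Ntrk3), and brain-derived neurotrophic factor, made from Bdnf, prefers TrkB (Ntrk2). Ligand binding activates the receptor's kinase and, through adaptor proteins, the Ras-MAP kinase, PI3 kinase and phospholipase C gamma pathways. p75 binds all neurotrophins weakly, and together with sortilin binds their uncleaved precursors with high affinity. Both Trk genes also give shorter receptors without a kinase, and astrocytes express mostly the short TrkB, which gene totals do not resolve.

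Libraries held 722080 to 3502017 counts in genes, the lowest being dKO-N 1 and dKO-N 3 and the highest dKO-N 4. Levels are CPM, counts relative to library size, after TMM scaling, which sets libraries to a common level by a trimmed mean of gene ratios. H3f3a was at 22.1 to 37.8 CPM in dKO-N and 22.93 to 30.04 CPM in dKO-E. Under the control label it stood at 16.4, 17.7, 117 and 121 CPM. H3f3b was at 111 to 146 CPM in dKO-N, 167 to 180 CPM in dKO-E and 76.7 to 143 CPM in control. It was called higher in dKO-E (log2 fold change 0.69, adjusted p = 0.000707) and was not lower in dKO-N (0.16), which runs against the knockout labels. The libraries labelled control 1 and control 3 had less H3f3a than any knockout library. As the alleles of the controls are not given, their label does not say which level of H3f3a they should have. Values without control 1 and 3 are given for the 6 genes and, where a call ends without them, for the pathway genes named. A whole-gene count does not resolve the deleted part of H3f3a or H3f3b. Y-linked transcripts were found in dKO-E 3 and dKO-E 4 and not, beyond stray counts, in the other libraries. Intervals from counts cover counting error only.

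Of the ligands, Ntf3 (ENSMUSG00000049107.13, chromosome 6, 126101412 to 126166910, minus strand, mm10) was lower in both knockouts and Bdnf had few counts in every library. Ntf3 was counted 3, 2, 0 and 10 times in dKO-N 1 to 4, that is at 4.08, 1.86, 0 and 3.00 CPM. Across dKO-E 1 to 4 it was counted 8, 11, 5 and 9 times, at 5.22, 4.46, 1.95 and 5.03 CPM. The libraries labelled control 1 to 4 counted it 77, 56, 33 and 61 times, which is 27.2, 29.8, 14.2 and 31.5 CPM. Every knockout library lay below every control library, and the lowest control, control 3, was above the highest knockout, dKO-E 1. The 0 in dKO-N 3 allows up to 4.13 CPM at that depth (3 counts), so dKO-N 3 is not distinguishable from the other dKO-N libraries.

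Fold changes come from a single edgeR fit of all 12 libraries over all genes that passed an expression filter, and a gene is called where its p, adjusted over those genes, is under 0.05. The fold change of Ntf3 was -3.31 on the log2 scale in dKO-N (SE 0.378) and -2.66 in dKO-E (SE 0.308). Means were 2.24 ± 1.74 CPM in dKO-N, 4.17 ± 1.51 CPM in dKO-E and 25.7 ± 7.83 CPM in control (SD, n = 4 each). Over summed counts, 15 in dKO-N against 227 in control, the ratio was 0.101 (95% exact Poisson interval 0.0556 to 0.170). For dKO-E, with 33 counts against 227 in control, it was 0.156 (0.105 to 0.226). Without the libraries labelled control 1 and 3 the log2 fold changes were -3.58 in dKO-N and -2.92 in dKO-E. Ntf3 passed the expression filter, 5.04 CPM before TMM scaling in at least 4 libraries, through the controls: 0 of 4 dKO-N, 2 of 4 dKO-E and 4 of 4 control libraries reached it. Less Ntf3 RNA per cell and fewer cells that make it cannot be told apart in whole cortex.

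RefSeq (GRCm38.p6, the same assembly as mm10) places Ntf3 starts at 2 positions, and these promoters are shown because Ntf3 had the largest fold change of the 5 genes with a fitted value in both knockouts. Each covers 250 bases before and 50 after the start, read along the gene. Capitals mark matches on either strand to the E-box CAGATG, bound by neuronal basic helix-loop-helix factors, and to the GC box GGGCGG. The cAMP response element TGACGTCA was searched as well and had no match.
Ntf3 upstream start, chr6:126166695-126166994, minus strand: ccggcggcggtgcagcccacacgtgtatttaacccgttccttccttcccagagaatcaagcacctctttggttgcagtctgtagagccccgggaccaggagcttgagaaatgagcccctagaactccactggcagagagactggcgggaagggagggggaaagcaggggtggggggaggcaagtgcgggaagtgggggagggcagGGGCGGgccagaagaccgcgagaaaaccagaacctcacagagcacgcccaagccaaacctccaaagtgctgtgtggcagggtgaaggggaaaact
Ntf3 downstream start, chr6:126164911-126165210, minus strand: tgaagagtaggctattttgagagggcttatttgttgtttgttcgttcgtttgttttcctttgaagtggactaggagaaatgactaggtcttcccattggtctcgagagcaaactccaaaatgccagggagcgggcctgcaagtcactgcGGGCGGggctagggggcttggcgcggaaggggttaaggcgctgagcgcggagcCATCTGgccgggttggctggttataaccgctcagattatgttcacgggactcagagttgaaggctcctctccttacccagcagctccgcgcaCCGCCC
The upstream promoter held 1 GC box and no E-box match, with 61.0% G and C and 12 CpG. The downstream promoter held 2 GC boxes and 1 E-box match, with 55.7% G and C and 17 CpG. Of 32851 promoters of the same length in the RefSeq table, 35.7% held a GC box, 17.2% the E-box and 1.79% the cAMP response element, and the median was 52.7% G and C with 7 CpG. A match is a description of letters and not a bound site.

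Bdnf (ENSMUSG00000048482.14, chromosome 2, 109674700 to 109727007, plus strand) gave 2 counts over the 4 dKO-N libraries, 15 over dKO-E and 15 over control. It was at 0, 0.932, 0 and 0.300 CPM across dKO-N 1 to 4. Across dKO-E 1 to 4 it was at 3.92, 2.03, 1.17 and 0.559 CPM, and in control 1 to 4 at 1.41, 1.60, 3.02 and 0.517 CPM. Single libraries held 0 to 7 counts, the groups overlapped, and Bdnf did not pass the expression filter, so it has no fitted fold change. The ratio of summed counts was 0.204 in dKO-N against control (95% exact Poisson interval 0.0226 to 0.876) and 1.07 in dKO-E against control (0.489 to 2.36). Without control 1 and 3, a choice made after seeing the data, the ratios were 0.325 in dKO-N (0.0294 to 2.27) and 1.71 in dKO-E (0.546 to 7.09), and both intervals include 1. Between the knockouts the ratio was 5.27 in dKO-E over dKO-N (1.23 to 47.5). Of the 15 control counts 7 came from control 3, and of the 15 dKO-E counts 6 came from dKO-E 1, so these ratios rest on few molecules. RefSeq lists 7 Bdnf promoters, whose separate transcripts gene totals do not resolve.

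**Figure D1:**
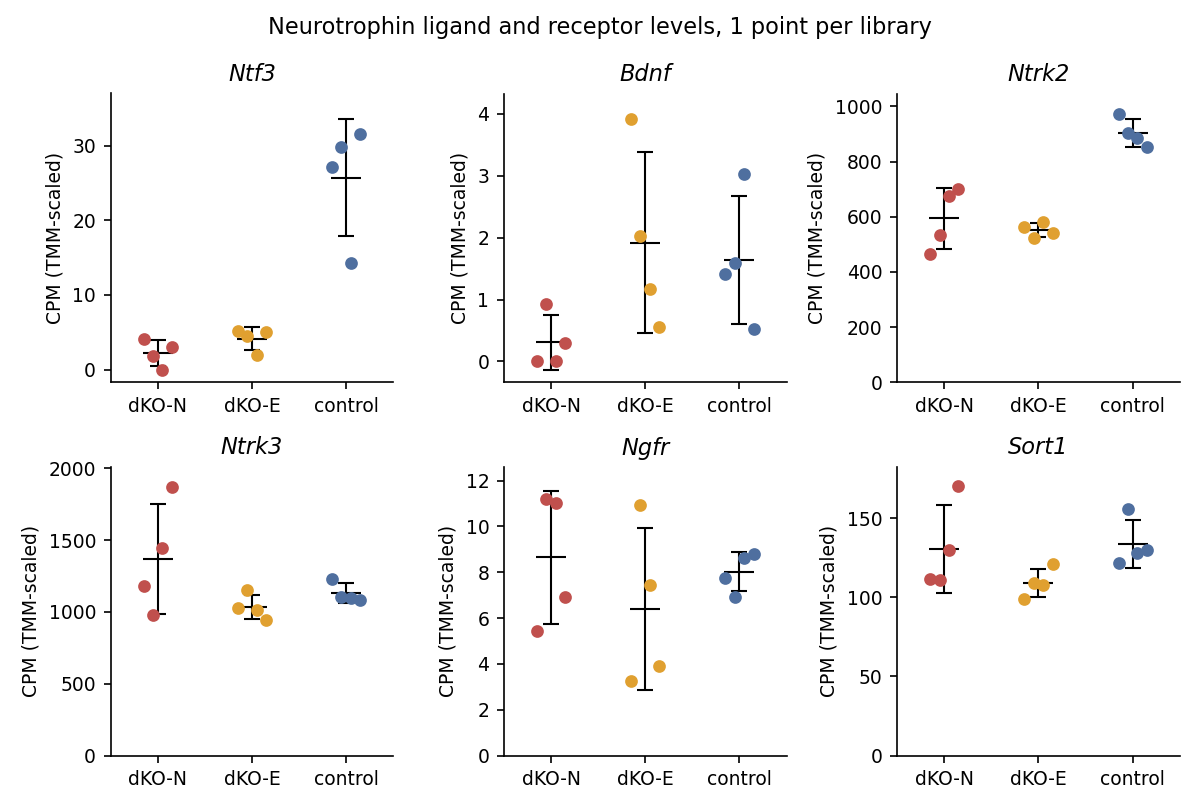
TMM-scaled CPM (y axis, linear, a scale per gene) of the 6 genes in dKO-N, dKO-E and control libraries, with 1 point per library and the mean ± SD of 4 libraries. Ntf3 and Ntrk2 do not overlap between either knockout and control, whereas Bdnf, Ngfr and Ntrk3 overlap.

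Among the receptors, Ntrk2 (ENSMUSG00000055254.14, chromosome 13, 58806569 to 59133970, plus strand), the TrkB gene, was lower in both knockouts. It was at 465, 535, 674 and 699 CPM across dKO-N 1 to 4 and at 562, 524, 581 and 542 CPM across dKO-E 1 to 4. The libraries labelled control 1 to 4 had 972, 904, 885 and 851 CPM. Neither knockout group overlapped control, and the 4 dKO-E libraries lay within the range of dKO-N, whose spread was wider. Means were 593 ± 112 CPM in dKO-N, 552 ± 24.7 CPM in dKO-E and 903 ± 50.7 CPM in control (SD, n = 4 each). The log2 fold change was -0.60 in dKO-N (SE 0.101) and -0.71 in dKO-E (SE 0.0994), and -0.56 and -0.67 without the libraries labelled control 1 and 3. The Ntrk2 promoter is shown as the start of the other gene that was lower in both knockouts, with the same motifs in capitals.
Ntrk2 start, chr13:58806319-58806618, plus strand: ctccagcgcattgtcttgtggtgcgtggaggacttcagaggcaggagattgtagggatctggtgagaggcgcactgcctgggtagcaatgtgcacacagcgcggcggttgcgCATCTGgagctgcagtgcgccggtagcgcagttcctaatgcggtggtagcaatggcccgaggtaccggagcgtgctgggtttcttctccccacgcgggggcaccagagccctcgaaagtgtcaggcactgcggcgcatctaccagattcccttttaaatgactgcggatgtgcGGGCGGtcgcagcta
It held 1 E-box match, 1 GC box and no cAMP response element, with 61.3% G and C and 23 CpG.

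Ntrk3 (ENSMUSG00000059146.12, chromosome 7, 78175959 to 78738012, minus strand), the TrkC gene that encodes the main receptor of neurotrophin-3, was not called in either knockout. It was at 1184, 976, 1443 and 1867 CPM across dKO-N 1 to 4. Across dKO-E 1 to 4 it was at 1025, 1150, 1016 and 946 CPM, and in control 1 to 4 at 1232, 1105, 1100 and 1081 CPM. The dKO-N libraries reached both above and below the controls, and dKO-N 4 was the highest of all 12 libraries. The log2 fold change was 0.28 in dKO-N (SE 0.140, 95% interval -0.01 to 0.58) and -0.13 in dKO-E (SE 0.140, interval -0.42 to 0.17). Without dKO-N 4 the first value was 0.08, and without dKO-N 2 it was 0.42 and past the 0.05 threshold. The values were 0.32 in dKO-N and -0.08 in dKO-E without control 1 and 3, both uncalled. The noncoding gene Gm9885 lies antisense within Ntrk3 and held 51 counts over all libraries, beside 870 to 6216 counts of Ntrk3 in each library.

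The balance of both Trk genes can be read within a library, where scaling between libraries plays no part. Ntrk3 made up 71.8%, 64.6%, 68.2% and 72.8% of the counts of Ntrk2 and Ntrk3 together in dKO-N 1 to 4. The shares were 64.6%, 68.7%, 63.6% and 63.6% in dKO-E 1 to 4. In control 1 to 4 they were 55.9%, 55.0%, 55.4% and 56.0%. The controls lay within 1 percentage point of each other, and all 8 knockout libraries were above them, the lowest, dKO-E 4, with an exact Clopper-Pearson interval of 61.7% to 65.4%. Group means were 69.3% ± 3.72 in dKO-N, 65.1% ± 2.44 in dKO-E and 55.6% ± 0.447 in control (SD, n = 4 each). As counts, Ntrk3 exceeded Ntrk2 by a ratio of 2.30 ± 0.387 in dKO-N, 1.88 ± 0.216 in dKO-E and 1.25 ± 0.0226 in control.

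**Figure D2:**
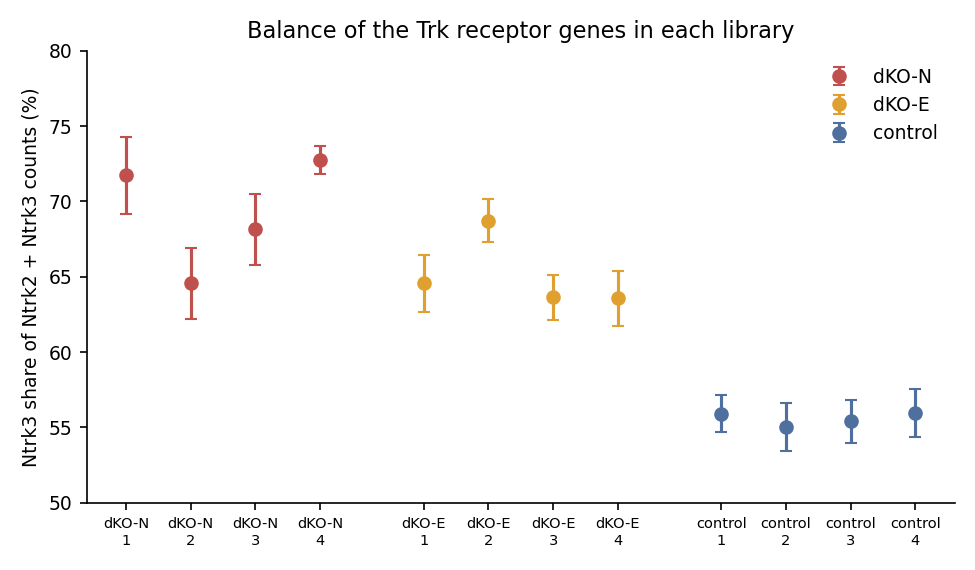
Ntrk3 counts as a percentage of Ntrk2 plus Ntrk3 counts (y axis, shown from 50% to 80%) in each library of dKO-N, dKO-E and control; bars are exact 95% binomial intervals, which cover counting error only. Controls sit at 55.0% to 56.0%, and every knockout library is at 63.6% or above.

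Ngfr (ENSMUSG00000000120.6, chromosome 11, 95568818 to 95587735, minus strand), the p75 gene, was scarce in all groups. It was at 5.44, 11.19, 11.03 and 6.91 CPM across dKO-N 1 to 4, at 3.27, 10.9, 7.42 and 3.92 CPM across dKO-E 1 to 4 and at 7.77, 6.92, 8.64 and 8.78 CPM across control 1 to 4. Libraries held 4 to 27 counts and the groups overlapped. The log2 fold change was 0.04 in dKO-N (95% interval -0.66 to 0.75) and -0.24 in dKO-E (interval -0.90 to 0.41), and both intervals include 0 at this depth. Ngfr was at 0.07 in dKO-N and -0.22 in dKO-E without control 1 and 3.

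Sort1 (ENSMUSG00000068747.14, chromosome 3, 108284082 to 108361511, plus strand), the sortilin gene, was at 112, 111, 130 and 170 CPM across dKO-N 1 to 4. It was at 98.62, 109.0, 107.5 and 120.8 CPM across dKO-E 1 to 4 and at 121.5, 155.5, 127.8 and 129.7 CPM across control 1 to 4. The dKO-N libraries spanned the controls, while the 4 dKO-E libraries lay just below the lowest of them, control 1. The log2 fold change was 0.02 in dKO-N (SE 0.119, 95% interval -0.22 to 0.27) and -0.29 in dKO-E (SE 0.116, interval -0.52 to -0.05). The dKO-E difference was short of the threshold in the fit of all libraries, and past it without dKO-N 4 (-0.29 again) and in a fit of dKO-E and control alone (-0.28). Sort1 was at -0.08 in dKO-N and -0.39 in dKO-E without control 1 and 3, both uncalled.

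**Figure D3:**
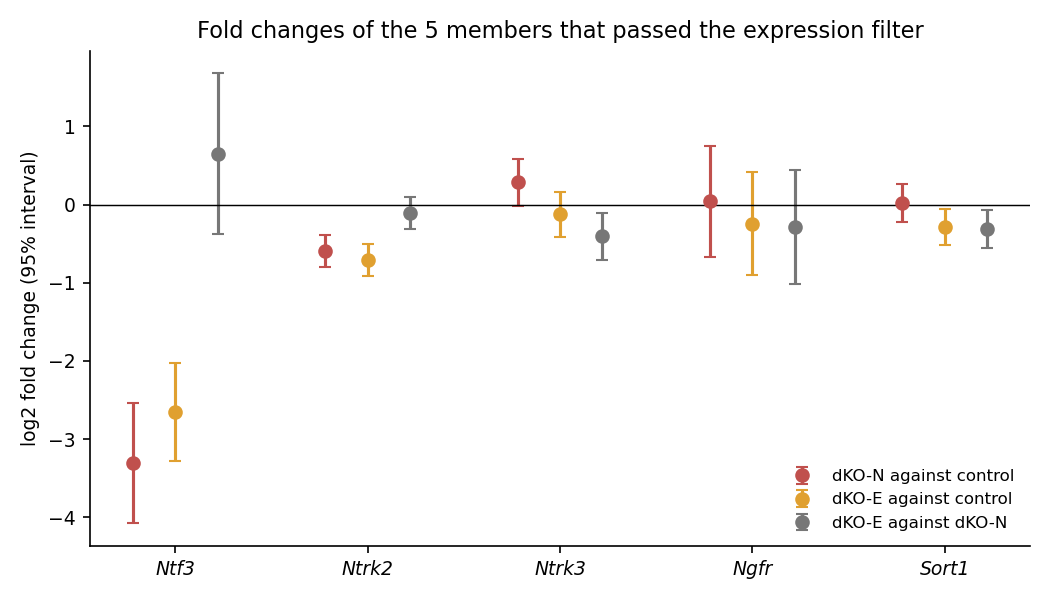
Fitted log2 fold changes (y axis) with 95% intervals of the 5 genes that passed the expression filter, in dKO-N against control, dKO-E against control and dKO-E against dKO-N. Ntf3 is at -3.31 and -2.66 and Ntrk2 at -0.60 and -0.71 against control, while intervals of Ngfr and Ntrk3 against control include 0.

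In both knockouts Ntf3 and Ntrk2, 2 of the 5 genes tested, were past an adjusted p of 0.05 and lower, beside 11.3% of all 11076 genes called in dKO-N and 20.2% in dKO-E. The comparisons share their control libraries. Since the genes were listed with these fold changes known, nothing is read from that count. Between the knockouts 0 of the 5 were called, beside 6.84% of all genes. By edgeR 2436 genes had an unadjusted p under 0.05 there, and DESeq2 also called 0 of the 5. The log2 fold change of dKO-E over dKO-N was 0.65 for Ntf3 (SE 0.508), -0.11 for Ntrk2 (SE 0.101), -0.41 for Ntrk3 (SE 0.140), -0.29 for Ngfr (SE 0.359) and -0.31 for Sort1 (SE 0.121). Without dKO-N 2, Ntrk3 (-0.54) and Sort1 (-0.40) were called lower in dKO-E. With dKO-N 4 left out instead they were at -0.21 and -0.10. Without control 1 and 3 the values were 0.66 for Ntf3, -0.11 for Ntrk2, -0.40 for Ntrk3, -0.29 for Ngfr and -0.30 for Sort1, none called.

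Per exonic kilobase, the length of all annotated exons of a gene, the order of the genes was Ntrk3, Ntrk2, Sort1, Ntf3, Ngfr and Bdnf over the 12 libraries. The levels were 39.0 ± 8.44, 35.4 ± 9.12, 16.4 ± 2.72, 6.24 ± 6.94, 2.23 ± 0.764 and 0.207 ± 0.195 CPM per exonic kb (SD, n = 12, in that order). Ntrk3 and Ntrk2 overlapped, as did Ntf3 and Ngfr, whose order depends on the group. In dKO-N Ntrk3 was at 45.3 ± 12.7 and Ntrk2 at 30.8 ± 5.80 CPM per exonic kb, in dKO-E at 34.3 ± 2.81 and 28.6 ± 1.28, and in control at 37.4 ± 2.30 and 46.8 ± 2.63 (SD, n = 4). Thus on this per-length level Ntrk3 was the higher in both knockouts and Ntrk2 in control. Ntf3 was at 1.30 ± 1.02 CPM per exonic kb in dKO-N, 2.43 ± 0.882 in dKO-E and 14.99 ± 4.57 in control, so it was near Ngfr in the knockouts (2.51 ± 0.845 in dKO-N, 1.85 ± 1.03 in dKO-E) and above it in control (2.33 ± 0.250). Per kilobase of whole gene, Ntf3 and Ngfr exchange places over the 12 libraries. Whether intronic reads were counted is not given in the sources used here, and both Trk genes are long, at 327 kb for Ntrk2 and 562 kb for Ntrk3.

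The genes most like each member in TMM-scaled log2 CPM over the 12 libraries, by Pearson correlation, are named as a description. For Ntf3 they were Wscd2 (0.97), Snap91 (0.96) and Crhr1 (0.95), and for Ntrk2 Arl15 (0.97), Fbxl17 (0.97) and Lhfp (0.96). For Ntrk3 they were Pitpnc1 (0.95), 3110039I08Rik (0.95) and Gtf2i (0.95), for Sort1 Nuak1, St7 and Tspan5 (0.90, 0.90 and 0.89) and for Ngfr Nudt10, Itfg1 and Ric3 (0.90, 0.89 and 0.86). The libraries share group differences, depth and scaling, and each r was among the 3 highest over all other genes tested. Crhr1, a corticotropin-releasing hormone receptor gene, had a like pattern to Ntf3 at smaller size, with 8.98 ± 2.40 CPM in dKO-N, 9.36 ± 0.347 in dKO-E and 22.03 ± 1.81 in control.

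Markers of other cells were read in the same libraries. The 9 excitatory neuron markers, which include Neurod6 and Slc17a7, summed to 2118 to 2741 CPM in dKO-N, 1496 to 1940 CPM in dKO-E and 3004 to 3428 CPM in control. The sum was lower in every knockout library, as Ntf3 and Ntrk2 were, although 1 of the 9 markers was called higher in each knockout (2 lower in dKO-N, 4 lower in dKO-E). Within dKO-N, dKO-N 4 had the highest sum, as it had the highest Ntrk2, Ntrk3 and Sort1. The 6 subplate markers, among them Nr4a2, summed to 17.9 to 24.0 CPM in dKO-N, 13.4 to 27.4 CPM in dKO-E and 64.1 to 87.6 CPM in control. Nr4a2 accounted for the lower sum, with 5.51 to 12.2 CPM in dKO-N, 1.96 to 11.2 CPM in dKO-E and 50.1 to 78.8 CPM in control. The other 5 summed to 8.165 to 15.85 CPM in dKO-N, 8.915 to 24.8 CPM in dKO-E and 8.83 to 16.5 CPM in control. Of these Lpar1 was called higher in dKO-E (1.30, adjusted p = 0.00721), and 4 were too scarce to test. Nxph4 averaged 1.48, 0.362 and 2.35 CPM in dKO-N, dKO-E and control, and Ccn2 1.49, 1.15 and 3.09 CPM. In the same order Cplx3 averaged 0.340, 0.297 and 0.672 CPM and Moxd1 2.495, 2.64 and 2.19 CPM. The 9 astrocyte and radial glia markers, cells that express Ntrk2 too, summed to 278 to 333 CPM in dKO-N and 279 to 337 CPM in dKO-E, and to 225 to 254 CPM in control. Of the 8 tested 1 was called higher in dKO-N (Slc1a3, the most abundant of the list) and 2 in dKO-E (Aldh1l1 and Sox9), and none was called lower. These were 12.5% and 25%, beside 11.3% and 20.2% of all genes. Without Slc1a3 the list summed to 117.2 to 140 CPM in dKO-N, 130.1 to 170.5 CPM in dKO-E and 95.07 to 118.3 CPM in control. The dKO-N and control libraries then overlapped, and those of dKO-E and control did not. The 9 endothelial and mural markers summed to 74.8 to 93.7 CPM in dKO-N, 70.3 to 104 CPM in dKO-E and 99.2 to 114 CPM in control. Cajal-Retzius markers (6) summed to 382 to 497, 229 to 345 and 416 to 481 CPM in dKO-N, dKO-E and control, and interneuron markers (9) to 335 to 410, 318 to 461 and 335 to 385 CPM. Reln, the most abundant Cajal-Retzius marker, and Ndnf were called lower in dKO-E, 50% of the 4 tested beside 20.2% of all genes. Neither was called in dKO-N, and no interneuron marker was called in either knockout. Meningeal markers (8) were at 4.08 to 12.6 CPM in dKO-N and 5.62 to 8.78 CPM in control, but at 65.3 CPM in dKO-E 1, the library with the highest Bdnf, and at 22.7 CPM in dKO-E 2, 5.47 CPM in dKO-E 3 and 5.03 CPM in dKO-E 4. Microglia markers (7) summed to 26.1 to 40.8, 27.1 to 35.9 and 21.3 to 28.1 CPM, and striatal markers (7) to 16.8 to 27.6, 11.7 to 28.1 and 16.6 to 32.4 CPM, in dKO-N, dKO-E and control. In dKO-E Rgs5 (endothelial and mural) and Ppp1r1b (striatal) were called lower and Csf1r (microglia) higher. These were 12.5%, 50% and 33.3% of those tested in their lists, beside 20.2% of all genes. None of these lists had a call in dKO-N. No listed marker was at 0 in all libraries. The part of these cell types in the differences of Ntf3 and Ntrk2 was not tested.

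The rest of the pathway was examined in 104 further genes in 7 lists, of which 92 were tested. The lists were drawn up with earlier results of these same counts known. Their shares, fold changes and adjusted p-values are therefore a description, and no enrichment is read from them. In dKO-N 5 rose and 13 fell, 19.6% of those tested beside the 11.3% of all genes, with a median log2 fold change of -0.05 against 0.01 over all genes. In dKO-E 14 rose and 13 fell, 29.3% beside 20.2%, with a median of 0.01 there and over all genes. Without the libraries labelled control 1 and 3 the counts were 10 in dKO-N and 16 in dKO-E. Leaving out control 2 or control 4 alone lowered the dKO-E count to 16 and 17, and leaving out dKO-N 4 lowered the dKO-N count to 12. With library totals in place of TMM scaling, 71.4% of the dKO-E calls were higher, against 51.9% as reported.

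**Figure D4:**
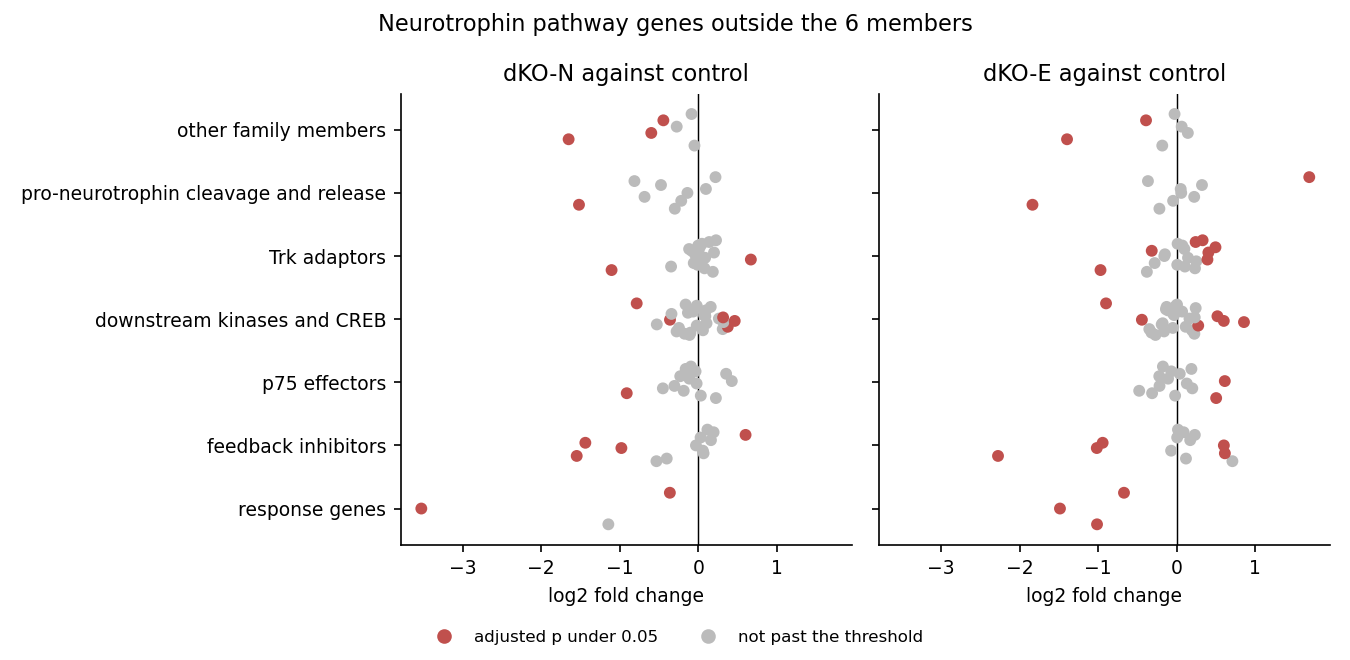
Log2 fold change (x axis) of the 92 tested pathway genes by list, in dKO-N against control and dKO-E against control, with genes past an adjusted p of 0.05 in red. Sorcs1, Pcsk2, Shc3 and Mef2c lie at -0.78 or lower in both panels, as do the scarcer Vgf, Spry4, Dusp6, Spred3 and Nptx2.

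Of 9 other genes of ligands, receptors and coreceptors 6 were tested, and 3 fell in dKO-N and 2 in dKO-E. These were 50% and 33.3% of those tested, beside 11.3% and 20.2% of all genes. Ntf5, the gene of neurotrophin-4, had 0 counts in every library. Sorcs1, a relative of sortilin, fell in both knockouts, to 102 CPM in dKO-N and 125 CPM in dKO-E against 324 CPM in control (log2 fold change -1.65, SE 0.124, adjusted p = 8.01e-12 for dKO-N; -1.40, SE 0.115, adjusted p = 3.53e-11 for dKO-E). Sorcs2, a p75 partner that binds proneurotrophins, fell in dKO-N (73.6 CPM in dKO-N against 106 CPM in control, -0.60, adjusted p = 0.00137) with 1 dKO-N library within the range of the controls, and was not called in dKO-E. Sorcs2 was also higher in dKO-E than in dKO-N, at 118 and 73.6 CPM (0.74, SE 0.132, adjusted p = 0.000516), and those groups did not overlap. Lingo1, a coreceptor with p75, fell by 0.45 on the log2 scale in dKO-N and by 0.39 in dKO-E. Its calls were lost without control 4 (adjusted p = 0.056 and 0.0569), without dKO-N 4 in dKO-N (0.184) and without dKO-E 3 in dKO-E (0.0535). They were also lost with library totals in place of TMM (0.0587 in dKO-N and 0.125 in dKO-E), and in dKO-N after thinning all libraries to the lowest total (0.119).

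Among 10 genes of proneurotrophin cleavage and release, 9 were tested. Of these 11.1% were called in dKO-N and 22.2% in dKO-E, near the 11.3% and 20.2% of all genes. Pcsk2, the convertase PC2 of secretory granules, fell in both knockouts, to 111 CPM in dKO-N and 89.5 CPM in dKO-E against 319 CPM in control (log2 fold change -1.52, SE 0.0952, adjusted p = 1.58e-14 for dKO-N; -1.84, SE 0.0917, adjusted p = 9.09e-18 for dKO-E). Hap1, whose protein helps to move vesicles that hold BDNF along axons, rose in dKO-E to 36.7 CPM against 11.2 CPM in control (1.69, SE 0.303, adjusted p = 0.000422). It was at 59.4, 36.5, 22.3 and 28.5 CPM across dKO-E 1 to 4 and at 7.77 to 13.4 CPM in control. No other gene of the list was called in either knockout against control.

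Of 20 Trk adaptor genes 19 were tested, and 1 rose and 1 fell in dKO-N, while 5 rose and 2 fell in dKO-E. The shares called were 10.5% and 36.8%, beside 11.3% and 20.2% of all genes. Shc3, the Shc adaptor of neurons, fell in both, to 77.2 CPM in dKO-N and 83.3 CPM in dKO-E against 162 CPM in control (log2 fold change -1.10, SE 0.114, adjusted p = 2.73e-09 for dKO-N; -0.97, SE 0.104, adjusted p = 3.9e-09 for dKO-E). Gab1, a docking protein for PI3 kinase, rose in dKO-N (0.67, adjusted p = 0.000717), averaging 81.4 ± 19.99 CPM over dKO-N and 52.4 ± 4.30 CPM over control (SD, n = 4 each), with 1 dKO-N library among the controls. It was called higher in dKO-E as well (0.39, adjusted p = 0.033). In dKO-E Plcg1, phospholipase C gamma 1, rose (0.41, adjusted p = 0.00057), as did the adaptor Crkl (0.50, adjusted p = 0.0138). The call of Crkl was lost without control 1 (adjusted p = 0.0681), without control 2 (0.0799) and without both control 1 and 3 (0.0853).

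All 28 genes of downstream kinases and CREB were tested, and 3 rose and 2 fell in dKO-N, while 4 rose and 2 fell in dKO-E. That is 17.9% and 21.4% called, beside 11.3% and 20.2% of all genes. Mef2c, an activity-regulated transcription factor of cortical neurons, fell to 1134 CPM in dKO-N and 1047 CPM in dKO-E against 1953 CPM in control (log2 fold change -0.78, adjusted p = 1.37e-07, and -0.90, adjusted p = 3.9e-09). Rps6ka2, a ribosomal S6 kinase below ERK, rose by 0.46 on the log2 scale with Neurod6-Cre (adjusted p = 0.00399) and by 0.60 with Emx1-Cre (adjusted p = 3.79e-05), and its dKO-N call was lost without control 1 and 3 (0.0801). Map2k5, the kinase of ERK5, rose in dKO-N (0.37, adjusted p = 0.022), a call lost without control 4, dKO-N 3 or dKO-N 4 (0.0677 to 0.155) and without control 1 and 3 (0.0571). Rps6ka1 rose in dKO-E (0.86, adjusted p = 0.0466), a call lost without control 2, 3 or 4 or dKO-E 1, 2 or 3 (0.0716 to 0.178) and without control 1 and 3 (0.067).

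The 14 p75 effector genes were all tested, and 1 fell in dKO-N and 2 rose in dKO-E, 7.14% and 14.3% beside 11.3% and 20.2% of all genes. Bex3, which binds the p75 death domain, was at -0.91 in dKO-N (adjusted p = 0.0425), and Zfp110 (0.61, adjusted p = 0.0285) and Traf6 (0.50, adjusted p = 0.022) were higher in dKO-E. None of these calls held in every leave-out. That of Bex3 was lost without control 2 or 3, dKO-N 2, 3 or 4 or dKO-E 2 or 3 (adjusted p = 0.051 to 0.267). Zfp110 was lost without control 1, 2 or 3 or dKO-E 2 or 3 (0.0583 to 0.114) and Traf6 without control 1, 3 or 4 or dKO-E 2 (0.0543 to 0.0757). Without control 1 and 3 the adjusted p was 0.258 for Bex3, 0.281 for Zfp110 and 0.285 for Traf6.

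The list labelled feedback inhibitors held 13 genes, all tested. It had 1 higher (Nedd4l, 0.60, adjusted p = 0.000368, named after its value was seen) and 3 lower in dKO-N. In dKO-E 2 were higher and 3 lower. The shares called were 30.8% in dKO-N and 38.5% in dKO-E, beside 11.3% and 20.2% of all genes. Spry4, a Sprouty inhibitor, fell in dKO-E (1.83 CPM in dKO-E against 8.89 CPM in control, log2 fold change -2.27, SE 0.404, adjusted p = 5.27e-05). With 3.62 CPM in dKO-N it fell there too (-1.55, adjusted p = 0.00954). Spry4 passed the filter through the controls: 1 of 4 dKO-N, 0 of 4 dKO-E and 4 of 4 control libraries reached it. Its adjusted p-values are therefore a description. Spred3, of the Sprouty-related family, fell in dKO-E (-1.02, adjusted p = 0.0012) and dKO-N (-0.98, adjusted p = 0.00749). Dusp6, the ERK phosphatase whose RNA ERK signalling raises, was at 6.16 CPM in dKO-N and 6.60 CPM in dKO-E against 13.2 CPM in control (-1.44, adjusted p = 0.00559, and -0.94, adjusted p = 0.0223). In dKO-N all of these calls were lost without dKO-N 4, the deepest library (adjusted p 0.133 for Spry4, 0.0668 for Spred3 and 0.171 for Dusp6, whose value was then -0.81), and that of Spred3 also without control 1 (0.0587). The dKO-E call of Dusp6 was lost without control 2, dKO-E 1 or dKO-E 4 (0.0556 to 0.0728). Without control 1 and 3 the calls of Spry4 (0.178) and Spred3 (0.0659) in dKO-N and of Dusp6 (0.0886) in dKO-E were lost.

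Response genes, which neurotrophins and activity induce, were mostly too scarce to test: 7 of 10, among them Arc, Fos and Egr1, did not pass the filter. Vgf, a secreted peptide precursor, was at 1.36, 1.86, 2.76 and 0 CPM across dKO-N 1 to 4. It was at 6.53, 2.43, 3.52 and 3.92 CPM across dKO-E 1 to 4 and at 8.12, 8.52, 9.50 and 18.6 CPM across control 1 to 4, without overlap between either knockout and control. Vgf fell in both (log2 fold change -3.53, SE 0.591, adjusted p = 3.9e-05 for dKO-N; -1.48, SE 0.39, adjusted p = 0.00538 for dKO-E), and like Ntf3 it passed the filter through the controls, as did Spry4 and Nptx2. Without dKO-N 4, which had no count of Vgf, its dKO-N value was -2.44 (adjusted p = 0.00226). The dKO-E call of Vgf was lost without control 4 (0.0584). Homer1, a postsynaptic scaffold gene, fell in dKO-E to 139 CPM against 222 CPM in control (-0.67, adjusted p = 2.35e-06) and in dKO-N to 168 CPM (-0.36, adjusted p = 0.0139). The dKO-N call of Homer1 was lost without dKO-N 1 (0.0614) and without control 1 and 3 (0.135). Nptx2, a pentraxin, was at -1.01 in dKO-E (adjusted p = 0.0441), a call lost without any 1 of the control or dKO-E libraries (0.0558 to 0.144) and without control 1 and 3 (0.15).

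Set against dKO-N, dKO-E had 7 pathway genes called higher and 2 called lower, 9.78% of the 92 beside 6.84% of all genes. Besides Sorcs2, the feedback inhibitor Spred1 kept its call in every leave-out (173.5 CPM in dKO-E and 120.1 CPM in dKO-N; the log2 difference was 0.55, SE 0.102, adjusted p = 0.000856). Hap1 was higher in dKO-E (1.47, adjusted p = 0.0124), a call lost without dKO-N 4 (0.133). Pik3cb (0.43) was higher too, a call lost without dKO-N 2 or 4 or dKO-E 3 or 4 (0.0571 to 0.107). Map2k1, the gene of MEK1, was lower (-0.66), a call lost without dKO-N 3 or 4 or dKO-E 1, 2 or 3 (0.0502 to 0.124). Pcsk6 (0.91) was lost without control 3, dKO-N 1, 3 or 4 or dKO-E 1, 2 or 3 (0.0513 to 0.178), Nedd4l (-0.37) without any library but dKO-N 1 and 2 (0.0551 to 0.273), and Mapk9 (0.35) without any of the 12 (0.0501 to 0.125). Without control 1 and 3 the adjusted p was 0.0633 for Pcsk6, 0.0735 for Nedd4l and 0.066 for Mapk9. Of the adaptors none was called, with the abundant Kidins220 and Fyn at -0.03 and 0.10. Homer1 (-0.31, adjusted p = 0.0671) and Vgf (2.04, adjusted p = 0.0697) were short of the threshold.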

How the data were processed

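Each library's deposited file lists whole-number counts by gene, with no scaling by the authors visible in it. STAR, UMI-tools, HTSeq and the mm10 build appear in the submitters' processing notes. Their versions, the annotation, the strand setting and the counting options are not stated in the labels used here. Summary lines stayed out of all totals (no feature 6.65% to 8.94%, ambiguous 2.0% to 2.2%, not unique 2.3% to 4.16% of a library). Gene names and positions came from GENCODE M21, which matched 99.6% of 51912 identifiers, and promoter sequences from RefSeq (GRCm38.p6), which held 4 of the 6 genes.

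Counts were TMM-scaled, filtered with filterByExpr (minimum count 10, 11076 genes) and tested with edgeR 4.0.16's quasi-likelihood test (R 4.3.3, robust, 1 fit of all 12 libraries, Benjamini-Hochberg adjustment over all genes, threshold 0.05), a pipeline checked on simulated counts. SE is the log2 fold change over the square root of F. DESeq2 1.42.0 served as an alternative. The members and gene lists were chosen with earlier results of these data known. The text names all 6 members, H3f3a and H3f3b, the 3 genes most correlated with each tested member, and of each pathway list, per comparison, up to 3 called genes of largest fold change, or else the 2 most abundant; some genes under that rule are not reported here.

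Whether replicate libraries are separate animals is not labelled, so p-values reflect the spread among libraries, which may be technical. Replicates differed by more than counting noise (chi-square over its degrees of freedom 1.62 to 6.09).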

Additional observations from a re-analysis of the deposited data

Results flagged for a closer look

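Among 138 groups of 4 libraries examined for a value far from the other 3 (levels of the genes named, the Trk count ratio and marker sums), 5 had one, 3.6%, where chance gives about 5%. Ntrk3 was at 1232 CPM in control 1, against 1081 to 1105 CPM in the other controls. Vgf was at 18.6 CPM in control 4, against 8.12 to 9.50 CPM. Library dKO-N 2 had 5.60 CPM of Nptx2, while the remaining dKO-N libraries had 2.40 to 2.76 CPM. Excitatory neuron markers summed to 2741 CPM in dKO-N 4 and to 2118 to 2203 CPM in dKO-N 1 to 3. Library dKO-E 1 had 835 CPM of Mef2c, against 1100 to 1139 CPM in the other dKO-E libraries.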

How the results depend on the processing

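Ntf3 and Ntrk2 were lower and called in both knockouts in every alternative that gave them a value (21 of 21 for Ntf3, 22 of 22 for Ntrk2). The log2 fold changes of Ntf3 were -3.78 to -3.11 in dKO-N and -2.92 to -2.38 in dKO-E. Those of Ntrk2 were -0.70 to -0.50 and -0.75 to -0.58. All alternatives refit the counts with which the genes were listed, and in the reported fit Ntf3 passed the filter through the controls. The alternatives therefore show dependence on processing and are no further evidence. Among members not called as reported, 6 values passed the threshold elsewhere: Ntrk3 and Sort1 as given in the report, and Ntrk3 in dKO-E against dKO-N without the filter (-0.38, 1 member called). The sign of Sort1 in dKO-N (13 of 22 alternatives as reported), Ngfr in dKO-N (17 of 20) and Ntrk3 in dKO-E (21 of 22) varied.

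Counts of calls are given for dKO-N against control, dKO-E against control and dKO-E against dKO-N, in that order. Thinning every library at random to the lowest total left 766, 1267 and 300 genes and 11 and 17 pathway genes in the comparisons with control; there 1 member was called in each, as Ntf3 no longer passed the filter. Thinning with edgeR's thinCounts, tried on seeing the data, left 382, 654 and 62 genes and 5, 9 and 1 pathway genes. The choice of the random thinning was made after both sets of counts were seen. thinCounts removes counts by a draw with replacement, and the common biological coefficient of variation was 19.8% with it, 10.2% with random thinning and 10.6% unthinned. Without control 1 and 3, 756 and 1215 genes and 10 and 16 pathway genes were called. With sex as a covariate 1325 genes and 15 pathway genes were called in dKO-E against control and 223 and 4 between the knockouts; in dKO-E against control the calls of Lingo1, Rps6ka1, Zfp110, Traf6, Spred3, Dusp6, Vgf and Nptx2 were lost. Of the pathway calls named, library totals also ended those of Lingo1, Bex3, Nptx2, Map2k1 and Nedd4l, random thinning those of Lingo1, Rps6ka2 and Homer1 in dKO-N, Crkl, Zfp110 and Traf6 in dKO-E and Pcsk6, Map2k1 and Pik3cb between the knockouts, and DESeq2 those of Bex3, Rps6ka1, Zfp110, Traf6, Nptx2, Pcsk6, Map2k1, Pik3cb, Mapk9 and Nedd4l. Between the knockouts, a fit of these groups alone called 488 genes and 4 pathway genes, and DESeq2 3 pathway genes. With library totals 57.8%, 73.9% and 65.4% of called genes were higher, against 44.5%, 50.04% and 45.5% as reported, and the all-gene median log2 fold change became 0.14 in dKO-E against control. Leaving out 1 library gave 972 to 1298, 1699 to 2753 and 300 to 1036 genes, 2 to 3, 2 to 3 and 0 to 2 members, and 12 to 19, 16 to 29 and 2 to 13 pathway genes. The cause of these moves was not tested, apart from fewer counts or libraries where an alternative has them.

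Replicate numbers did not pair the libraries (correlation of deviations -0.12 to 0.013 between groups at the same number). With the number as a replicate block, 1065, 1974 and 500 genes, 2, 2 and 0 members and 16, 22 and 4 pathway genes were called. Depth limits Bdnf and most response genes, which had too few counts for a fitted value.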
